A study of Saccharomyces cerevisiae and Schizosaccharomyces pombe with 8 samples.

Results

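A PCF11 mutant of the fission yeast Schizosaccharomyces pombe was compared with wild type, both in minimal medium, across all genes of the 3 nuclear chromosomes. Each genotype is 1 library, so the comparison uses 2 of the 8 libraries of a study of alternative polyadenylation in budding and fission yeast. The mutant is labelled by genotype as a PCF11 mutant and its control as wild type. The labels give no allele, strain background, growth temperature, growth stage or recipe of the medium, and they do not say whether the wild type shares other alleles with the mutant. A PAB2 mutant and a wild type in rich medium, again 1 library each, are quoted beside some values to show how far the other S. pombe libraries lay apart. The genes were 5113 coding genes, 7133 long noncoding RNA genes and 328 structured RNA genes (transfer, ribosomal, small nuclear and small nucleolar RNAs and the like). Cleavage sites were chosen and ordered on the minimal-medium wild-type library alone, so that the mutant did not pick them.

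Pcf11 is a subunit of the complex that recognises the end of a nascent messenger RNA, where the transcript is cut and a poly(A) tail is added. It also binds the tail-like carboxy-terminal domain of RNA polymerase II, and it is known from budding yeast as a factor needed both for cleavage and for release of the polymerase from DNA past the gene end. Many yeast genes have several cleavage sites, named proximal and distal by their distance from the stop codon, and the site used sets the length of the 3' UTR, the stretch between stop codon and transcript end.

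With 1 library per genotype no difference could be tested against the spread between cultures. Values are therefore given as measured, and a gene is said to be higher or lower when it passed a stated size. Intervals are exact 95% intervals that cover counting error only, and reads without molecular identifiers are not independent molecules. Fewer molecules of an RNA per cell and fewer cells that make it cannot be told apart in such bulk samples. Each read marks the 3' end of a polyadenylated RNA and does not show where that RNA began, so a read past a gene end may come from the gene or from a transcript that started downstream.

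The mutant library held 3413939 nuclear reads at 148711 positions, against 2697953 reads at 114474 positions in wild type. The 20 genes with most reads took 42.9% of nuclear reads in the mutant and 30.1% in wild type. The tdh1 gene, for the glycolytic enzyme glyceraldehyde-3-phosphate dehydrogenase, was the top gene of the mutant with 9.04% of nuclear reads, whereas rpl301, for a ribosomal protein, was that of wild type with 7.68%. Because a few genes took so large a share in the mutant, read ratios were set on library sizes scaled by the trimmed mean of M-values (TMM), with factors of 0.911 for the mutant and 1.10 for wild type. The factors were computed over coding, long noncoding and structured RNA genes together, so the coding genes alone do not set the zero point of the ratios.

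The pcf11 gene itself (SPAC4G9.04c, chromosome I, 2255677 to 2259186, minus strand) had 204 reads in the mutant and 92 in wild type, and 97 in the PAB2 mutant and 85 in rich-medium wild type. The log2 ratio of reads was 1.10 (interval 0.75 to 1.48). The place of the reads differed more than their number. In the last 100 nt of the annotated 3' UTR the mutant had 182 reads and wild type 9, while in the rest of the 3' UTR the mutant had 13 reads and wild type 80. The coding region held 2 reads in the mutant and 3 in wild type. As the kind of mutation is not given, these reads do not check the label.

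The gene upstream of pcf11 on the same strand is chz1, for a histone chaperone. Between the annotated end of chz1 and the annotated start of pcf11 (I, 2259187 to 2259603) there were 6512 reads in the mutant and 8 in wild type, against 44 in the PAB2 mutant and 14 in rich-medium wild type. The 3' UTR of chz1 held 1036 reads in the mutant and 283 in wild type. Read ends in front of pcf11 were thus abundant in the mutant library alone among the 4 S. pombe libraries.

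Read ends in the mutant lay less often in annotated 3' UTRs and more often beyond them. Annotated 3' UTRs of coding genes held 60.3% of nuclear reads in the mutant (interval 60.3% to 60.4%) and 78.8% in wild type (78.8% to 78.8%). The first 100 nt past the annotated transcript end held about as much in both, 13.7% in the mutant and 13.3% in wild type. Beyond that, up to 250 nt past the end, the shares were 3.17% in the mutant and 1.44% in wild type, and from there to 500 nt they were 6.28% and 1.00% in the same order. That outermost stretch was mostly 1 gene in the mutant: pvg3, annotated as a galactosyltransferase gene, gave 147386 reads there in the mutant and 5845 in wild type. Without pvg3 the stretch held 1.96% of nuclear reads in the mutant and 0.786% in wild type.

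Reads opposite the annotated span of a coding gene, and inside no coding or structured gene window of their own strand, made up 8.38% of nuclear reads in the mutant and 1.08% in wild type. They were 2.49% in the PAB2 mutant and 1.11% in rich-medium wild type. Other long noncoding RNA genes took 4.08% in the mutant and 1.60% in wild type, and structured RNA genes 1.37% and 0.246%. Read ends before the stop codon were scarcer in the mutant. Coding exons held 1.05% of reads in the mutant and 1.51% in wild type, and introns 0.0773% and 0.247%.

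**Figure D1:**
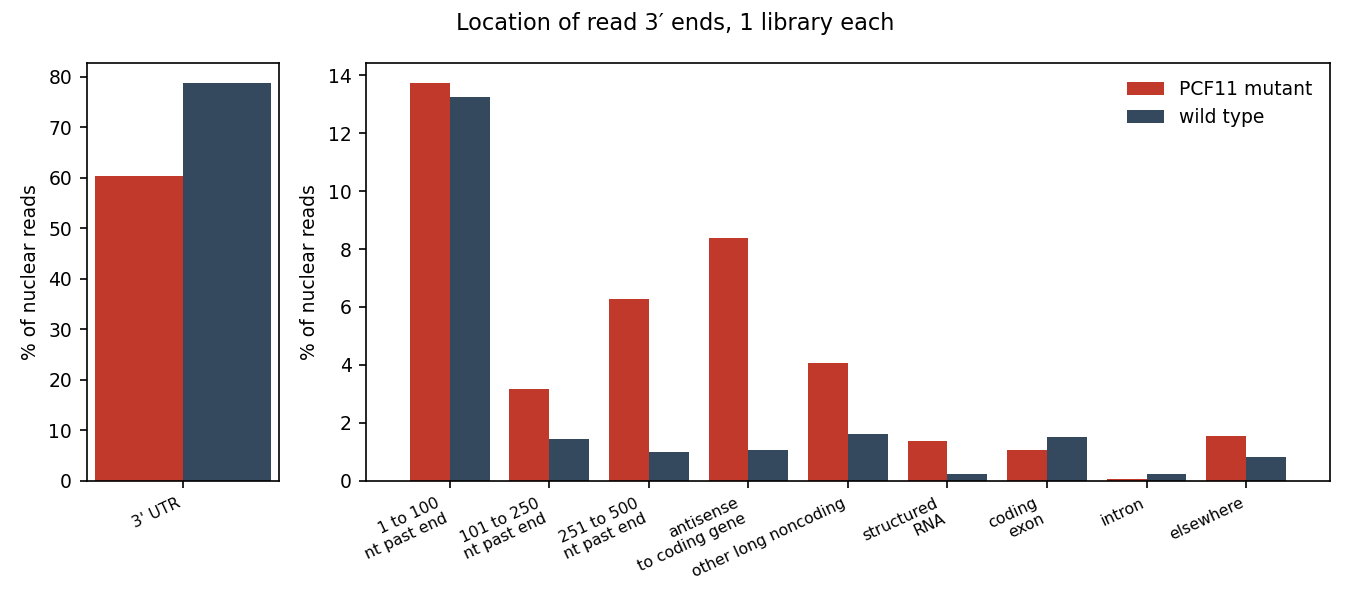
Share of nuclear reads (%) by location of the read 3' end, with PCF11 mutant bars left of wild-type bars and 1 library each; the 3' UTR has its own axis. The mutant bars are lower in 3' UTRs (60.3% against 78.8%) and higher from 250 to 500 nt past gene ends (6.28% against 1.00%) and antisense to coding genes (8.38% against 1.08%).

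Read-through was measured for each coding gene as the share of its reads past the stop codon that lay 1 to 500 nt past the annotated transcript end. Of 1988 genes with at least 50 such reads in each library, 626 had a share at least 10 percentage points higher in the mutant, which is 31.5%, and 24, or 1.21%, had one at least 10 points lower. The share of the median gene was 10.9% in the mutant and 2.00% in wild type, beside 3.49% in the PAB2 mutant and 1.68% in rich-medium wild type. It was above the wild-type share in 1568 of the 1988 genes (78.9%). With all coding genes pooled, 27.8% of reads past the stop codon lay past the annotated end in the mutant and 16.6% in wild type. Leaving out pvg3, which gave 18.6% of the past-end reads of the mutant, the pooled shares were 23.8% in the mutant and 16.4% in wild type.

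The 2 wild-type libraries give a measure of how far libraries lay apart when the genotype label was the same and the medium differed. Rich over minimal medium wild type, by the same rules, had 26 of 2719 genes at least 10 points higher and 94 at least 10 points lower in read-through share. The PAB2 mutant over rich-medium wild type had 324 of 2884 genes higher and 26 lower. The first of these comparisons shares the minimal-medium wild-type library with the PCF11 comparison.

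**Figure D2:**
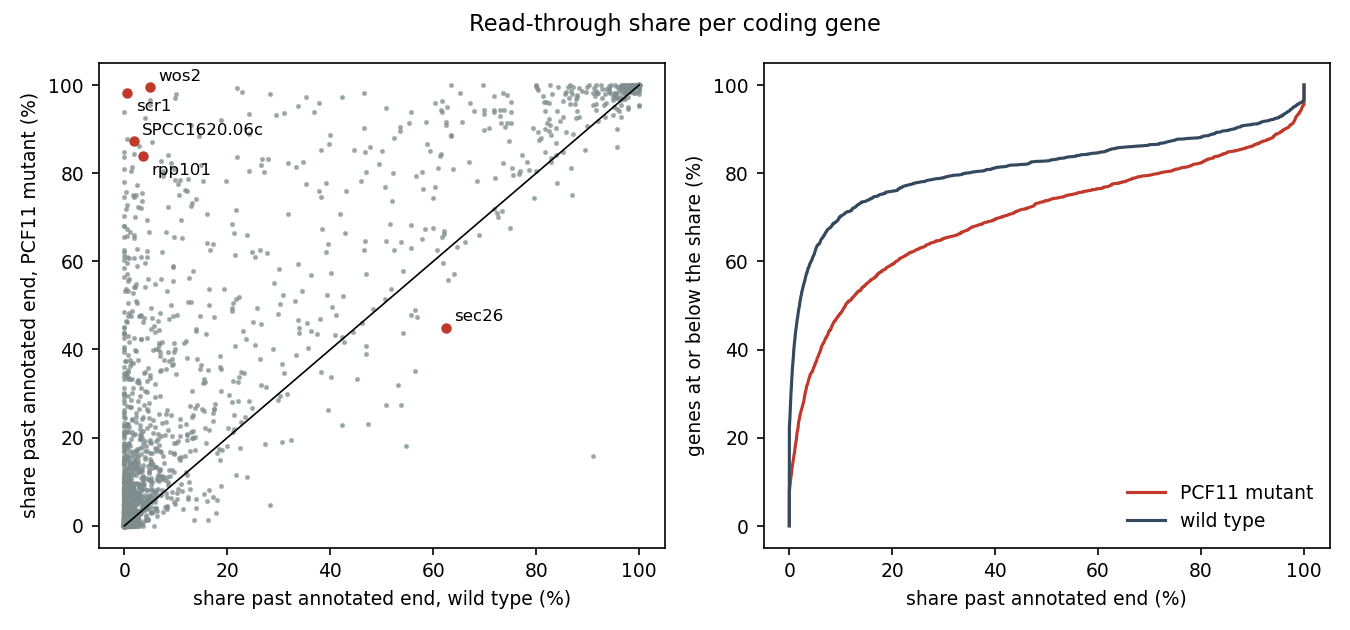
Left, each point is 1 of 1988 coding genes, with the share of its reads past the stop codon that lay past the annotated end in wild type (x, %) and in the PCF11 mutant (y, %) and the line of equal shares. Right, the percentage of genes at or below each share in the PCF11 mutant and in wild type; the median gene stood at 10.9% in the mutant and 2.00% in wild type.

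Among genes of 100 or more such reads in each library, those with the largest gain were the transcriptional repressor gene scr1, the p23 co-chaperone gene wos2, the ribose-phosphate pyrophosphokinase gene SPCC1620.06c, the RNA helicase gene dbp3, chz1, the mitochondrial import gene mim1, the ribosomal protein gene rpp101 and the transgelin-like gene stg1. For scr1 (II, 1752093 to 1755619, plus strand) 290 of 295 reads lay past the end in the mutant and 1 of 168 in wild type, or 98.3% (96.1% to 99.4%) and 0.595% (0.0151% to 3.27%). For wos2 (I, 4467887 to 4469089, minus strand) it was 9675 of 9714 reads in the mutant and 35 of 713 in wild type, or 99.6% and 4.91%. For SPCC1620.06c (III, 2152833 to 2155107, minus strand) it was 4478 of 5127 reads in the mutant and 27 of 1527 in wild type, or 87.3% and 1.77%. Almost all wild-type reads of these 3 genes thus ended within the annotated transcript, and most mutant reads ended beyond it.

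For dbp3, 134 of 160 reads lay past the end in the mutant and 0 of 161 in wild type; that count of 0 allows a share of up to 2.27% by the exact interval. The ribosomal protein gene rpp101 had 2187 of 2609 reads past the end in the mutant and 47 of 1300 in wild type, which is 83.8% and 3.62%. The shares were 86.3% in the mutant and 2.75% in wild type for chz1, 87.2% and 5.34% for mim1, and 80.4% and 1.34% for stg1. In rich-medium wild type none of the 8 genes exceeded 4.69%, and in the PAB2 mutant they lay between 1.54% and 29.7%. The shares of the 8 genes were therefore low in wild type of both media.

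The bases after the cleavage position are shown for 4 of these genes, since the read ends of each library lay at a different defined position. Each line gives the 30 nt that follow the position, 5' to 3' on the strand of the gene, on ASM294v2; capitals mark GTA on the strand shown, the DNA letters of GUA, the core of the motif bound by Seb1. The bases were read from the RefSeq reference genome. The first line of a gene is the position of its most used wild-type site, and the second is the most used position of the mutant past the annotated end.
scr1, wild-type position (chrII:1755433-1755462, plus strand): gtttttctttttttttttgttttaaatttt
scr1, mutant position (chrII:1755875-1755904, plus strand): ctttgttaaacaatgattagtgacagttcg
wos2, wild-type position (chrI:4468158-4468187, minus strand): cgtttcatacaaaattgcaatcaacctttt
wos2, mutant position (chrI:4467755-4467784, minus strand): gtcatttaattgagGTAatttaccaaatgt
SPCC1620.06c, wild-type position (chrIII:2153605-2153634, minus strand): tttgttcaagttgtttatcttttcttGTAa
SPCC1620.06c, mutant position (chrIII:2152790-2152819, minus strand): ttagaGTActctgcatcaatagaaagcaaa
rpp101, wild-type position (chrI:2700990-2701019, plus strand): tatcttcttgtgttttgaaattaaaaattt
rpp101, mutant position (chrI:2701240-2701269, plus strand): tacatctcggcctcggagtGTAggagtttg

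At the wild-type position of wos2 there were 12 reads in the mutant and 331 in wild type, and at the mutant position 4497 and 11 in the same order. At the wild-type position of rpp101 there were 224 reads in the mutant and 635 in wild type, and at its mutant position 1188 and 18. For scr1 the wild-type position had 1 read in the mutant and 31 in wild type, and the mutant position 236 and 0. For SPCC1620.06c the wild-type position had 38 reads in the mutant and 342 in wild type, and the mutant position 1570 and 10. The far positions of wos2, rpp101 and SPCC1620.06c were thus read in wild type at a low level, and that of scr1 was not seen there.

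Over all 626 genes with a gain, GTA stood within 30 nt after the most used past-end position of the mutant in 62.5% of genes and after the most used wild-type site of the same genes in 51.3%. Positions 200 nt further downstream of the mutant positions held it in 35.8%. For AATAAA, the classical polyadenylation signal, searched on the sense strand 10 to 35 nt before the position, the shares were 19.8% at the mutant positions, 17.9% at the wild-type sites and 3.83% at the positions 200 nt downstream. The main wild-type sites of all 1988 genes had GTA in 54.6% and AATAAA in 19.9%, and positions 200 nt past those sites 40.5% and 4.23%. The past-end positions used in the mutant therefore carried both letter strings at least as often as the wild-type sites of the same genes. These are descriptions of sequence, and the positions were picked by the mutant's reads.

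Read-through gains were spread over gene arrangements and were more frequent among genes with long 3' UTRs. Of the 662 genes with the longest 3' UTRs (over 382 nt) 40.8% gained at least 10 points, against 21.7% of the 667 with the shortest (up to 178 nt). Wild-type shares differed between these classes as well, with medians of 0.784% in the long and 6.41% in the short one. Genes whose downstream neighbour points toward them gained in 33.5% of cases and genes followed by a gene on the same strand in 29.0%. By wild-type reads, 19.8% of the 663 genes with most reads gained and 40.9% of the 667 with fewest. The minimum of reads counts past-end reads too, so genes with few wild-type reads could pass it more easily with a gain in the mutant. The median log2 ratio of reads was -0.91 in the class with most reads and 0.12 in the class with fewest. This contrast can therefore come in part from the minimum, which bears on the share over all genes as well. A GTA after the main wild-type site went with 29.6% of genes gaining, and its absence with 33.8%.

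Lower read-through shares were rare. The largest drops among genes with at least 100 reads in each library were those of rtf2, for a replication termination factor, sbh1, for a translocon subunit, sec26, for a coatomer subunit, and mlo1, for an RNA-binding protein. For rtf2, 33 of 183 reads lay past the end in the mutant and 69 of 126 in wild type, or 18.0% and 54.8%. The shares were 22.9% in the mutant and 42.3% in wild type for sbh1, 45.0% and 62.5% for sec26, and 2.81% and 17.7% for mlo1. In rtf2 the most used wild-type position was 1 nt past the annotated end and that of sec26 was 11 nt past it, so small shifts in position change the class of their reads. When only reads over 24 nt past the most distal wild-type site were counted, 1 gene in place of 24 dropped by 10 points, and the differences turned to 1.93 points for sec26 and 0.44 points for mlo1. The sites were drawn from the wild-type library itself, so wild type has few reads beyond them by construction. That setting leaves little room for a drop and cannot decide whether the drops depend on the annotated end.

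A higher read-through share did not go with a uniform change in the reads of the gene. The median log2 ratio of reads was -0.30 over the 268 genes with a gain of at least 30 points, -0.43 over the 358 with a gain of 10 to under 30 points and -0.48 over the 1338 that moved by less than 10 points. The past-end reads that define a gain also count in these ratios, so the order of the classes is not independent of the gain. For genes followed by a same-strand gene, the log2 ratio of that next gene had a median of -0.61 after a gain of at least 30 points (61 genes), -0.83 after a gain of 10 to under 30 points (86 genes) and -0.42 after a smaller move (368 genes). The middle 50% of the ratios ran from -1.60 to 0.50 in the first of these classes and from -1.38 to 0.47 in the last, so the classes overlapped widely.

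Read ends in the mutant continued well beyond 500 nt. In 1087 coding genes with no same-strand coding or structured gene starting within 2000 nt of their end and at least 50 reads in each library, 46.7% of the reads past the stop codon lay up to 2000 nt past the end in the mutant and 23.1% in wild type, as means over genes. Between 501 and 2000 nt the means were 22.9% in the mutant and 4.43% in wild type, beside 9.21% in the PAB2 mutant and 4.79% in rich-medium wild type. From 501 nt on, each 100 nt bin held 1.05% to 1.90% of a gene's reads in the mutant and 0.199% to 0.468% in wild type, with no decline toward 2000 nt in either. In the last bin, 33.2% of genes had at least 1 read in the mutant and 9.66% in wild type; the mutant library was the deeper one. Transcripts that start within the 2000 nt are counted here too.

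**Figure D3:**
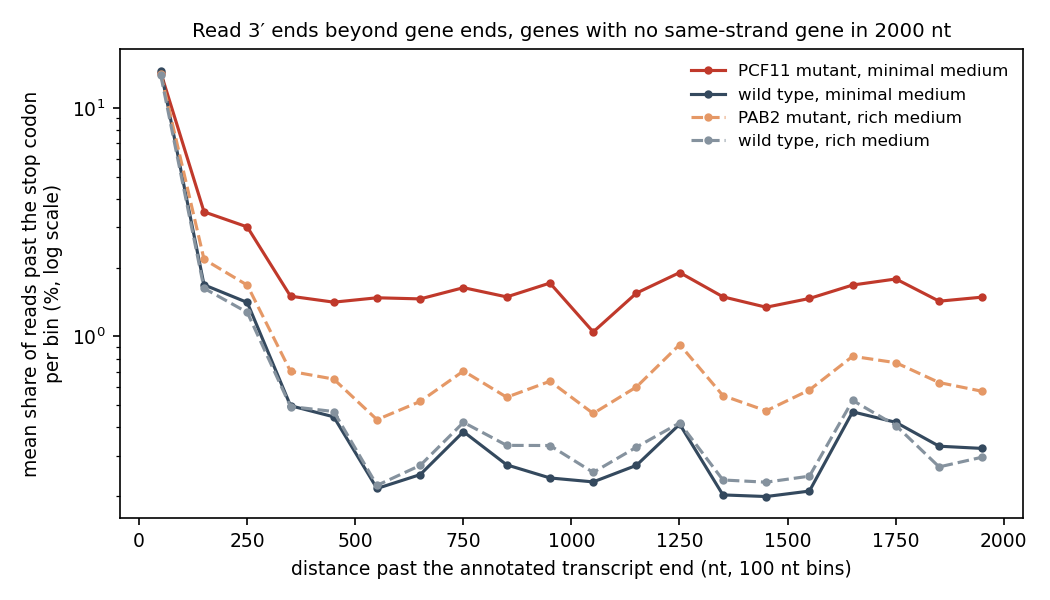
Mean share of a gene's reads past the stop codon (%, log scale) in each 100 nt bin past the annotated end, over 1087 coding genes, for the 4 S. pombe libraries. From 501 nt on the PCF11 mutant stays between 1.05% and 1.90% per bin and its wild type between 0.199% and 0.468%.

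Use of alternative sites within genes lay further downstream in the mutant. For 1711 genes the 2 most used wild-type sites had at least 100 reads in the pair; distal over proximal use was past 2-fold higher in the mutant in 870 (50.8%) and past 2-fold lower in 206 (12%). The median log2 difference was 1.04. In 1121 genes whose 2 sites together had 50 reads or more in each library, the distal site took a median of 79.0% of the reads in the mutant and 55.7% in wild type. Rich over minimal medium wild type, by the same sites, had 116 of 2108 genes past 2-fold toward distal and 271 toward proximal. The PAB2 mutant over rich-medium wild type had 704 of 2213 genes toward distal and 81 toward proximal.

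The shift was larger where the sites lay at least 100 nt apart. The median log2 difference was 0.59 for sites under 100 nt apart (927 genes), 1.43 at 100 to under 300 nt (457 genes), 2.58 at 300 to under 1000 nt (199 genes) and 2.47 at 1000 nt or more (128 genes). Where the proximal site lay before the stop codon, in 200 genes, the median was 2.14 and 142 genes were past 2-fold toward the distal site. Where both lay past the stop codon the median was 0.92 over 1511 genes. Such a proximal site before the stop codon cuts the coding region short.

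**Figure D4:**
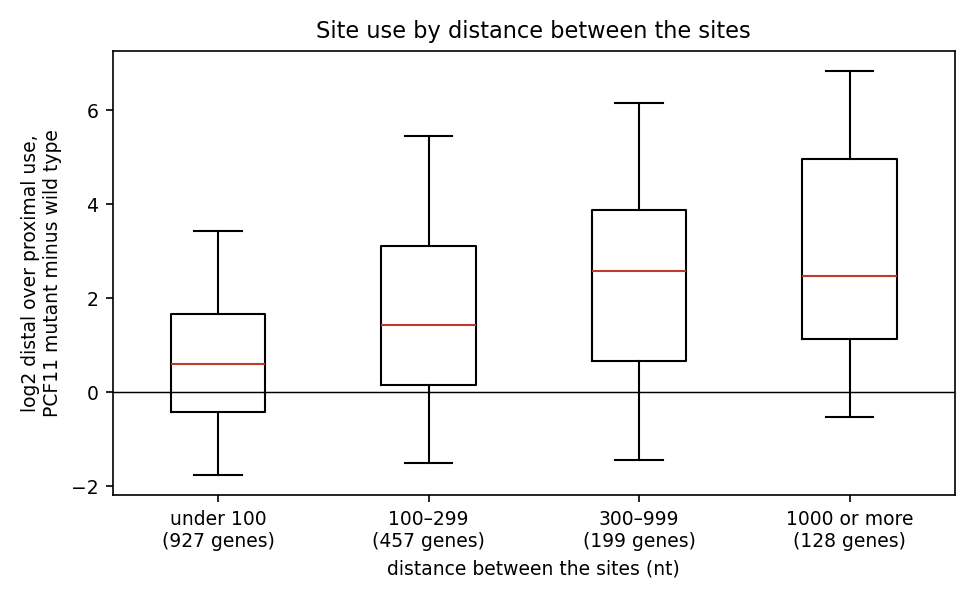
Log2 distal over proximal site use, PCF11 mutant minus wild type, by distance between the 2 sites. Red lines are medians, boxes the middle 50% of genes and whiskers the 5th to 95th percentile; the medians are 0.59, 1.43, 2.58 and 2.47 from the shortest to the longest distance.

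Among the genes with the largest distal shifts, taken from those whose 2 sites together had at least 50 reads in each library, several used the wild-type proximal site hardly at all in the mutant. In SPCC569.05c, for a spermidine transporter family member, the proximal site had 0 reads and the distal site 246 in the mutant, against 34 and 18 in wild type. In SPAC4H3.06, an uncharacterized gene, it was 1 and 418 reads in the mutant against 39 and 18 in wild type. In nta1, for an N-terminal amidase, sites 2708 nt apart had 4 proximal and 503 distal reads in the mutant against 37 and 32 in wild type. Distal use in the 3 genes was 100%, 99.8% and 99.2% in the mutant and 34.6%, 31.6% and 46.4% in wild type. With sites ranked on both libraries, the log2 difference in site use of nta1 turned to -0.41, so its shift depends on which sites are compared.

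In spc1, for a signal peptidase subunit, distal use was 98.6% in the mutant and 27.3% in wild type, and in the uncharacterized SPBC577.11 it was 99.7% and 55.7%. In tpp2, for tripeptidyl-peptidase II, both sites lay past the annotated end, with distal use of 99.8% in the mutant and 63.6% in wild type. In meu18 the proximal site lay in the coding exon, 1362 nt before the stop codon. It had 8 of 482 site reads in the mutant and 168 of 234 in wild type. The PAB2 mutant, in rich medium, stood between these minimal-medium values in each of the 4 genes, with distal use from 50.4% to 88.7%. Its rich-medium wild type is not quoted for these genes, so the values do not measure an effect of the PAB2 mutation.

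The pab2 gene, for the nuclear poly(A)-binding protein, was among these 8 genes. Its proximal site, 555 nt past the stop codon, had 0 reads in the mutant and 80 in wild type, and its distal site, 168 nt further on, had 141 reads in the mutant and 46 in wild type. Distal use was 100% in the mutant and 36.5% in wild type, and 87.0% in the PAB2 mutant and 55.6% in rich-medium wild type. The 30 nt after the 2 positions both hold GTA.
pab2, proximal site (chrII:1939509-1939538, minus strand): taatttcattatatatatatttttGTAatg
pab2, distal site (chrII:1939341-1939370, minus strand): tgattttatatagaaaatGTAtgactttct

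Under the same minimum of reads, the opposite shift was led by dbp2, for a DEAD-box RNA helicase. Its proximal site, 107 nt past the stop codon, had 5695 reads in the mutant and 1006 in wild type, and its distal site, 424 nt further on, had 7 reads in the mutant and 85 in wild type. Distal use was 0.123% in the mutant and 7.79% in wild type, and 5.61% in the PAB2 mutant and 6.11% in rich-medium wild type. The distal site of dbp2 lies past the annotated end, so that this gene used its far site less in the mutant while most genes used theirs more.
dbp2, proximal site (chrII:3662717-3662746, minus strand): tttaccggcttagttaaattttgaaGTAgt
dbp2, distal site (chrII:3662293-3662322, minus strand): cttaaaagaaataaaaaagttttttttttc

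Other leading proximal shifts were those of atg44, for mitofissin, mlo1, the ribosomal protein gene rps102, the prenyl protease gene ste24, SPAC27E2.11c and the transcription regulator gene zas1. In atg44 the proximal site, in the coding exon, had 1148 reads in the mutant and 221 in wild type, while the distal site had 2 and 28. In rps102 distal use was 0.490% in the mutant and 10.1% in wild type, and in ste24 it was 4.13% and 42.5%. In each of these genes and dbp2, the exception being ste24, the distal site was the minor one in wild type, with at most 16.5% of the reads of both sites. With sites ranked on rich-medium wild type, the log2 difference in site use of zas1 turned to 1.12.

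The share of genes past 2-fold toward the distal site differed by the presence of AATAAA 10 to 35 nt before the sites. It was 66.3% of 270 genes with AATAAA at the distal site only, 40.4% of 156 with it at the proximal site only and 48.4% of 1255 with it at neither. For GTA within 30 nt after the sites the corresponding shares were 46.5% of 592 genes, 57.3% of 309 and 53.4% of 386. These classes were not matched for distance between sites.

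Positions outside all wild-type sites took 6.78% of the reads of coding genes in the mutant and 3.15% in wild type, beside 3.53% in the PAB2 mutant and 3.49% in rich-medium wild type. The wild-type value is low in part by construction, since the sites were drawn from that library. The spread of reads over sites within a gene was much alike: the median effective number of sites was 1.64 in the mutant and 1.66 in wild type over 2139 genes. The read-weighted distance of read ends from the stop codon had a median of 259.5 nt in the mutant and 194 nt in wild type over 3019 genes. The median of the differences within genes was smaller, 27.8 nt. The distance was longer in the mutant in 2679 genes (88.7%), by at least 100 nt in 791, and shorter by at least 100 nt in 6.

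Coding gene reads differed widely between the libraries, and the balance of higher and lower genes depended on the scaling. Of 2879 coding genes with 100 or more reads in both libraries together, 400 (13.9%) were past 2-fold higher in the mutant and 1148 (39.9%) past 2-fold lower. The median coding gene had a log2 ratio of -0.64. Relative to that median gene, a setting added after the data were seen, 713 genes were past 2-fold higher and 657 past 2-fold lower. Past 4-fold, 159 were higher and 443 lower on the TMM scale. Rich over minimal medium wild type had 37 of 3195 coding genes higher and 84 lower, so the 2 wild-type libraries lay far closer together.

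**Figure D5:**
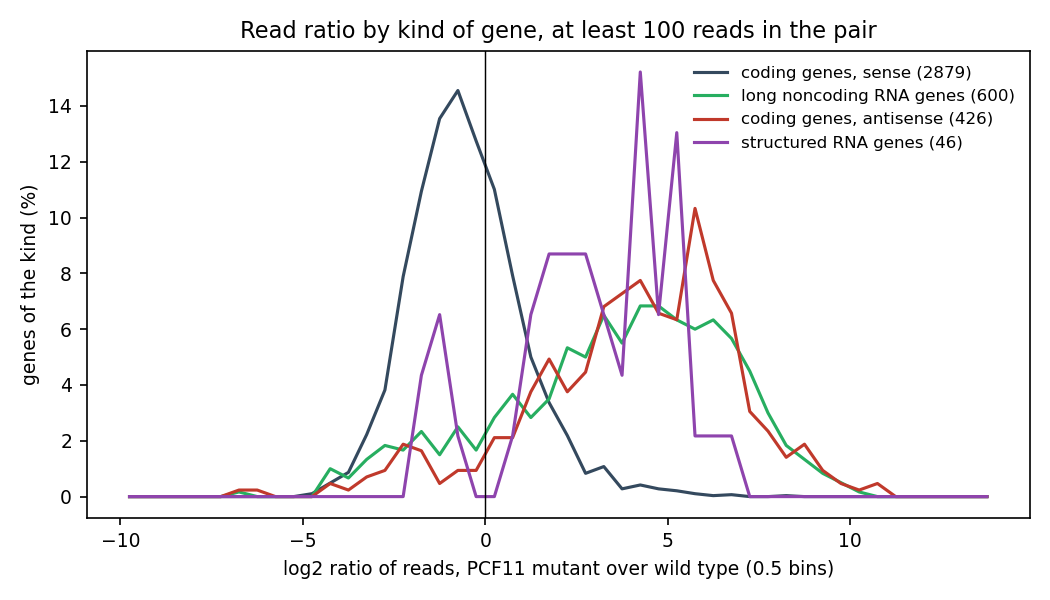
Distribution of the log2 ratio of reads, PCF11 mutant over wild type, in bins of 0.5, for coding genes read in sense and in antisense, long noncoding RNA genes and structured RNA genes with 100 or more reads in both libraries together. Coding genes centre on -0.64, and antisense reads and noncoding genes on values between 3.26 and 4.40. That minimum favours noncoding genes and antisense loci with many mutant reads. With at least 20 reads in each library the medians were -0.62 for coding, 1.40 for long noncoding and 2.46 for structured RNA genes.

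The 10 highest coding gene ratios, among genes of at least 20 reads in each library, came mostly from reads past the annotated end. For hut1, for an endoplasmic reticulum sugar-nucleotide transporter (II, 618428 to 621850, minus strand), there were 3091 reads in the mutant and 23 in wild type, a log2 ratio of 6.97 (6.44 to 7.69). Of these, 99.6% lay past the annotated end in the mutant and 56.5% in wild type, with 2979 mutant reads at 1 position 60 nt past the end. For pus2, for a transfer RNA pseudouridine synthase, there were 951 reads in the mutant and 27 in wild type, and 99.2% of the mutant reads lay past the end. For dus2, for a transfer RNA dihydrouridine synthase, there were 2351 and 67 reads, and 98.7% and 17.9% of them lay past the end in the mutant and in wild type. Counted only up to the annotated end, the reads of pus2 had a log2 ratio of -0.15 and the reads of dus2 one of -0.43, so their higher counts rest on reads past that end.

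The succinate dehydrogenase gene sdh1 had 1429 reads in the mutant and 68 in wild type, and csn1, for a COP9 signalosome subunit, had 987 and 44. Counted only up to the annotated end, the log2 ratio of csn1 turned to -1.16. Past the annotated end lay 97.6% of sdh1 reads in the mutant and 63.2% in wild type. The proteasome gene rpt6 had 2223 reads in the mutant and 108 in wild type, with 85.8% and 19.4% past the end. The meiotic gene mug8 had 1154 and 43 reads, most often ending 2 nt beyond the annotated end in both. The DNA polymerase gene pog1, with 2130 reads in the mutant and 54 in wild type, was the only one of the 10 with most mutant reads inside the annotated transcript, since 35.2% lay past the end.

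The gene window of pvg3 (II, 2416908 to 2418497, minus strand) held 147641 reads in the mutant and 6055 in wild type, and 200021 in the PAB2 mutant and 7207 in rich-medium wild type. The log2 ratio was 4.57 (4.53 to 4.61). Past-end reads made up 99.8% in the mutant and 96.6% in wild type, and the most used position, 471 nt past the end, was the same in both with 41412 and 1134 reads. This far position was thus high in both mutants and low in both wild types.

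In all 10 of the lowest coding genes the most used position was the same in both libraries. The ecl2 gene had 26 reads in the mutant and 730 in wild type, a log2 ratio of -4.80 (-5.47 to -4.29), and 50 in the PAB2 mutant and 1104 in rich-medium wild type. The mkt1 gene, for a regulator of RNA stability, had 32 and 606 reads in the mutant and in wild type. The uncharacterized SPCC1259.08 had 414 and 7491 reads. Its most used position, 214 nt before the annotated end, was the same in both, with 274 and 5632 reads. The transfer RNA splicing gene sen2 had 27 reads in the mutant and 480 in wild type, the glycosyltransferase gene ost1 68 and 1178, and the protein kinase gene gsk31 70 and 1168. The other low genes were SPAC3G6.05, with a log2 ratio of -4.10, SPAC8E11.10, with 22 reads in the mutant and 370 in wild type, coa4, with 43 and 790, and ftp105, with 20 and 436. Almost all reads of coa4 lay past the annotated end in both libraries, and up to that end, over few reads, its log2 ratio was 0.38 instead of -4.21. In ftp105, 96.6% of wild-type reads and 55.0% of mutant reads ended before the stop codon, and the most used position, 2242 nt before the annotated end, had 6 reads in the mutant and 288 in wild type.

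Of the 16 listed cleavage and polyadenylation factors, 12 had at least 100 reads in the pair; 3 were past 2-fold higher in the mutant and 5 lower, beside 13.9% and 39.9% of all coding genes, with a median log2 ratio of -0.41 beside -0.64. The higher ones were pcf11, the zinc finger subunit gene yth1 (189 reads in the mutant and 78 in wild type) and the polymerase phosphatase gene ssu72 (192 and 78). The lower ones were the poly(A) polymerase gene pla1 (32 and 183), the endonuclease gene ysh1 (91 and 470), the phosphatase gene dis2 (169 and 536), swd22 (85 and 197) and the nuclease-family gene cft2 (70 and 138). All reads of cft2 past the stop codon lay past the annotated end, and up to that end, over few reads, its log2 ratio was 0.96 instead of -1.01. Between these, cft1 had 66 reads in the mutant and 128 in wild type, ctf1 90 and 78, rna14, whose product works beside Pcf11, 412 and 275, and the Fip1-like gene iss1 637 and 420. The 4 with too few reads were mpe1 (56 and 20), pta1 (32 and 60), pfs2 (21 and 36) and ppn1 (6 and 38). The listed factors thus did not go one way.

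Several of these factor genes differed in the place of their ends. In rna14 47.6% of reads lay past the annotated end in the mutant and 0.743% in wild type, and in cft1 56.0% and 0.806%. In swd22, distal site use was 80.5% in the mutant and 27.9% in wild type. In ssu72 it was 95.3% and 63.2%. In iss1 the read-through share was lower, with 11.0% in the mutant and 23.9% in wild type. Of 10 factor genes with at least 50 reads past the stop codon in each library, 2 gained and 1 dropped by 10 points or more, beside 31.5% and 1.21% of all genes.

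Of the 17 termination and elongation factors found, 8 had enough reads, of which 0 were past 2-fold higher and 4 lower, beside 13.9% and 39.9% of all coding genes. The helicase gene sen1, whose budding yeast counterpart ends noncoding transcription, had 196 reads in the mutant and 1260 in wild type, a log2 ratio of -2.72 (-2.95 to -2.50). Its paralogue dbl8 had 76 and 360 reads. The gene seb1, for a factor that selects poly(A) sites, had 606 and 1814 reads. The fourth was rtf1, with 598 and 1191 reads, and whether it belongs in this list is uncertain. The torpedo exonuclease gene dhp1 had 84 reads in the mutant and 89 in wild type, spt6 76 and 85, and paf1 82 and 66, with log2 ratios of -0.12, -0.20 and 0.27. The gene lsk1, for the polymerase kinase, had 38 and 68 reads. The gene rhn1, for a termination factor that binds the polymerase tail, had only 1 read in the mutant and 8 in wild type. The others had fewer than 100 reads in the pair, from 12 and 84 for din1 to 30 and 16 for spt5. In paf1, 80.5% of reads lay past the end in the mutant and 24.2% in wild type.

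Of 16 measured genes of nuclear RNA decay, 2 were past 2-fold higher and 7 lower, beside 13.9% and 39.9% of all coding genes, with a median log2 ratio of -0.55. The exosome nuclease gene rrp6 had 793 reads in the mutant and 88 in wild type, a log2 ratio of 3.12, and the poly(A) polymerase gene cid14 290 and 83. Against these, erh1, for a partner of Mmi1, had 21 and 192 reads and the exosome gene rrp43 24 and 161. Past the annotated end lay 13 of 21 erh1 reads in the mutant and 191 of 192 in wild type. Up to that end, over few reads, the log2 ratio of erh1 was 2.55 instead of -3.17.

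Meiotic genes whose transcripts Mmi1 removes in growing cells had 19 of 23 listed members in the annotation, and 5 of these had at least 100 reads in the pair. All 5 were past 2-fold higher in the mutant, with a median log2 ratio of 2.59, beside 13.9% of all coding genes. The forkhead factor gene mei4 had 754 reads in the mutant and 121 in wild type, mcp7 203 and 55, rec10 91 and 14 and the cyclin gene crs1 150 and 9. Summed over the 19 members, the mutant had 2630 reads and wild type 419. Most of the mutant sum came from mug8, with 1154 and 43 reads, and mei4. Members under the minimum went both ways, such as mbx2 with 10 reads in the mutant and 25 in wild type and mug10 with 49 and 12. With the low wild-type counts, members could reach 100 reads mainly through the mutant, so the 5 are not a sample of the list. Pheromone and mating genes, which mark mating cells, had 1 higher and 3 lower of 10 measured, beside 13.9% and 39.9% of all coding genes, with summed reads of 1502 in the mutant and 1955 in wild type.

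Phosphate genes showed gains in read-through. All 4 members with at least 50 reads past the stop codon in each library gained at least 10 points, beside 31.5% of all genes, with a median gain of 47.4 points beside 3.59. The acid phosphatase gene pho1 had 75.1% past the end in the mutant and 1.73% in wild type, and the phosphate transporter gene pho84 had 74.2% and 13.9%. The thiamine-repressible acid phosphatase gene pho4 had 34.7% and 3.90%, and the ubiquitin ligase gene pqr1 had 41.7% and 7.27%. These shares leave out reads that did not lie past the stop codon. For pho1, 855 of 1361 reads lay past the stop codon in the mutant and 2023 of 2030 in wild type. For pho84 it was 528 of 767 and 2071 of 2074, and for pqr1 180 of 191 and 110 of 111. The order was the other way for pho4, with 75 of 77 and 77 of 89. Of 7 members measured by reads, 0 were past 2-fold higher and 4 lower, beside 13.9% and 39.9% of all coding genes. These were pho8, with 19 reads in the mutant and 206 in wild type, vtc4, with 18 and 167, pho84, with 767 and 2074, and tgp1, with 72 and 142.

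Glycolysis and fermentation genes took a large share of the mutant library, with 644187 reads in the mutant and 180324 in wild type over 19 genes. Of 15 measured, 3 were past 2-fold higher and 3 lower, beside 13.9% and 39.9% of all coding genes. Most of the reads were those of tdh1, with 308592 in the mutant and 34768 in wild type, and gpd3, with 245904 and 81081; both encode glyceraldehyde-3-phosphate dehydrogenase, and near-identical copies can share reads. Their log2 ratios were 3.11 and 1.56. The hexokinase gene hxk1 had 279 and 774 reads and pgi1, for the next enzyme, 1123 and 3010. Summed level and gene count thus differ, as 2 genes carry the sum.

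Of 6 measured zinc genes, 0 were past 2-fold higher and 3 lower, beside 13.9% and 39.9% of all coding genes, with a median log2 ratio of -1.35 beside -0.64. S. pombe uses the alcohol dehydrogenase genes adh1 and adh4 by zinc supply. The adh1 gene was counted with the glycolysis and fermentation genes and is not among these 6. It had 397 reads in the mutant and 21 in wild type, a log2 ratio of 4.14, and 953 in the PAB2 mutant and 702 in rich-medium wild type. Its antisense RNA adh1AS had 579 reads in the mutant and 4829 in wild type, and 21 and 37 in those rich-medium libraries. The adh4 gene had 585 reads in the mutant and 3254 in wild type, and the zinc transporter gene zrt1 1019 and 3678, with log2 ratios of -2.51 and -1.89. For all 4 RNAs the mutant stood between minimal-medium wild type and the rich-medium libraries.

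Of 131 ribosomal protein genes, 6 were past 2-fold higher and 44 lower, beside 13.9% and 39.9% of all coding genes, with a median log2 ratio of -0.67 beside -0.64; many are near-identical pairs whose reads cannot be assigned with certainty. Their read-through share gained at least 10 points in 26 of 124 (21.0%, beside 31.5% of all genes), led in reads by rpl22, with 66.1% of 7142 reads past the end in the mutant and 1.90% of 2049 in wild type. The following counts stand beside the same all-gene shares of 13.9% higher and 39.9% lower. Among 11 histone genes measured, 0 were higher and 4 lower. RNA polymerase II subunits had 2 higher and 3 lower of 9, with rpb1 at 398 reads in the mutant and 190 in wild type and rpb6 at 36 and 264. Ribosome biogenesis genes had 13 higher and 11 lower of 49, from rix7 with 2734 and 135 reads to rrp17 with 10 and 236. Heat shock and chaperone genes had 3 higher and 2 lower of 16, and wos2 stood highest with 9714 reads in the mutant and 716 in wild type. Up to the annotated end the log2 ratio of the reads of wos2 was -3.72 instead of 3.72. Core stress genes had 4 higher and 5 lower of 16, nitrogen and amino acid transport genes 4 and 4 of 15, splicing factors 1 and 5 of 15, and iron and copper genes 0 and 3 of 4.

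Antisense reads were higher at most loci where they could be measured. Of 426 coding genes with at least 100 reads on the opposite strand in the pair, 371 (87.1%) were past 2-fold higher in the mutant and 29 (6.81%) lower, with a median log2 ratio of 4.40. In 37 of them wild type had 0 reads. With these set at the 3 reads that a count of 0 allows, the median was the same. That outcome was fixed, since such loci need 100 mutant reads to be measured and so stay above the median. The minimum favours loci with many mutant reads, since antisense reads were scarce in wild type. The locus with most mutant reads, though not the highest ratio, was opposite rng2, a cytokinesis gene. It had 47873 reads in the mutant and 52 in wild type, of which 45394 and 49 ended at 1 position, 76 nt past the annotated end of SPNCRNA.3182. The same locus had 172 reads in the PAB2 mutant and 90 in rich-medium wild type, so it was high in 1 of 4 libraries.

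Next came the loci opposite knh1, with 10410 reads in the mutant and 7 in wild type, ape2, with 8875 and 417, and yih1, with 6705 and 18. Sense reads of knh1 were also more numerous, 421 in the mutant and 138 in wild type, while pus1 had 4759 antisense and 33 sense reads in the mutant against 29 and 443 in wild type. Opposite and same-strand reads thus did not move in one relation. Of all antisense reads, 44.9% in the mutant and 36.2% in wild type had a stop codon of their own strand less than 2000 nt upstream. The 20 richest positions of each library took 34.7% of antisense reads in the mutant and 15.2% in wild type.

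Long noncoding RNA genes showed the same direction, largely over the same reads. Of the antisense reads, 228631 of 286061 in the mutant and 22691 of 29147 in wild type lay in windows of long noncoding RNA genes. Of 600 with at least 100 reads in the pair, 473 (78.8%) were past 2-fold higher in the mutant and 63 (10.5%) lower, with a median log2 ratio of 4.01. Of these genes, 407 lay mostly opposite a coding gene, so the 2 results are not separate. In 339 of the 600, wild type had under 20 reads, so these could reach the minimum mainly through the mutant. Among the 240 with at least 20 reads in each library, 134 were higher and 42 lower, with a median of 1.40. Among these 240, the highest after SPNCRNA.3182, with 47822 reads in the mutant and 51 in wild type, were SPNCRNA.7641, with 4887 and 30, SPNCRNA.5482, with 3207 and 21, SPNCRNA.2562, with 3813 and 29, and SPNCRNA.491, with 5455 and 44. The lowest were SPNCRNA.1350, with 44 reads in the mutant and 884 in wild type, SPNCRNA.583, with 40 and 468, SPNCRNA.941, with 85 and 961, SPNCRNA.1115, with 21 and 199, and SPNCRNA.1690, with 21 and 195.

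Structured RNA genes, whose mature products mostly carry no poly(A) tail, gave more polyadenylated ends in the mutant. Of 46 measured, 39 (84.8%) were past 2-fold higher and 5 (10.9%) lower, with a median log2 ratio of 3.26. Of these, 15 had under 20 reads in wild type and could reach the minimum mainly through the mutant. Among the 31 with at least 20 reads in each library, 24 were higher and 5 lower, with a median of 2.46. Small nuclear RNA genes of the spliceosome had 8429 reads in the mutant and 181 in wild type, small nucleolar RNA genes 32581 and 4029, and transfer RNA genes 4339 and 753. The U1 gene snu1 (II, 3020205 to 3020353, plus strand) had 5229 reads in the mutant and 69 in wild type, a log2 ratio of 6.18, most often ending 3 nt beyond the annotated end in both. The U6 gene snu6, which RNA polymerase III transcribes, had 2967 and 61 reads, with most used positions 6 and 7 nt past the end.

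The PAB2 mutant had 33 reads at snu1 and 184 at snu6, against 60 and 86 in rich-medium wild type. By contrast, the small nucleolar RNA gene SPNCRNA.901 was high in both mutants, with 2905 reads in the PCF11 mutant and 77 in wild type, and 3895 in the PAB2 mutant and 131 in rich-medium wild type. The SPNCRNA.1709 gene had 12893 and 309 reads and snR93 993 and 26. In the 27 measured small nucleolar RNA genes, 84.4% of reads in the mutant and 58.3% in wild type lay past the annotated end. That order rests on snoR61, for without it the shares were 85.4% in the mutant and 89.5% in wild type. In the 13 measured transfer RNA genes 18.2% lay past the end in the mutant and 65.5% in wild type, and without SPATRNAILE.01 14.8% and 39.1%. The 5 lower genes were sno52, with 83 reads in the mutant and 243 in wild type, snR97, with 39 and 113, snoR61, with 531 and 1339, snoR58, with 45 and 92, and the ribosomal RNA gene SPRRNA.49, with 565 and 1400.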

How the data were processed

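The 3' ends of polyadenylated RNA were amplified from total RNA, per the labels' protocols. Alignment used Bowtie2 (no version given) and ASM294v2, per the submitters' processing notes. The deposited values are raw read counts, 1 for each position and strand, that the authors did not normalize. How reads with several matches were placed is not given in the sources used here. Genes came from the RefSeq annotation. The nuclear sequences it annotates fitted the files: among positions of 20 or more reads the next base was A at 0.184% to 0.547%, against 29.2% to 32.0% for the base 8 nt downstream.

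A coding gene took reads of its strand from its start codon to 500 nt past its annotated end, and the next same-strand gene took over at its start codon. Structured RNA genes took them from their first base, and long noncoding RNA genes took reads left over. Log2 ratios are reads plus 1 over TMM-scaled sizes, given where both libraries together had 100 reads or more. Sites joined positions within 24 nt and needed 5% of the wild-type reads of a gene. An effective number of sites is the inverse of the chance that 2 reads share a site. Python 3.11.15, numpy 2.4.6, pandas 2.3.3 and scipy 1.17.1 were used, and the measures were tested on simulated data. No test across samples was possible with 1 library per group.

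Named genes were the 10 highest and 10 lowest coding ratios with at least 20 reads in each library, the 8 largest site shifts each way with at least 50 site reads in each library, the 8 largest gains and 4 largest drops in read-through with at least 100, all cleavage and termination factors, up to 3 highest and lowest of each other list, and the 5 highest and lowest long noncoding and structured RNA genes. One gene that this rule names is not reported here. Members and lists were chosen with earlier results of these data known. The alternatives changed scaling, minimum reads, pseudocount, gene window, site joining and ranking, the end used for read-through and the loci included.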

Additional observations from a re-analysis of the deposited data

How the results depend on the processing

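No paired analysis was possible because each genotype is 1 library. Intervals cover counting error only, and genes with few reads are limited by depth. Totals of the reads assigned to genes, in place of TMM sizes, moved the median of the 2879 measured coding genes by -0.27 on the log2 scale. Causes of the moves below were not tested unless the setting itself removes genes or reads. For coding gene reads, 1836 genes were lower with 20 reads in the pair, 160 higher and 408 lower with 500, 255 higher with 50 in wild type alone, and 713 higher and 657 lower relative to the median gene. With 300 reads, 405 genes shifted to distal and 89 to proximal sites. For read-through, 1131 genes were higher and 48 lower with 20 reads in each library, 176 and 4 with 200, and 1 was lower when reads over 24 nt past the most distal wild-type site were used. That last setting turned mlo1 to 0.44 and sec26 to 1.93 points, but it leaves little room for drops, since its sites were drawn from the wild-type library. The pooled past-end share, mutant minus wild type, was 11.1 points, and 6.17 up to 250 nt, 13.1 up to 1000 nt, 12.4 without the 20 richest genes, 8.91 for the median gene and 7.40 without pvg3. The antisense share differed by 7.30 points, and by 7.35 without chromosome ends, 3.92 without reads downstream of an own-strand stop codon, 4.66 without the 20 richest positions and 5.998 without the reads opposite rng2. The median distance from the stop codon differed by 65.2 nt, and by 30.6 within 500 nt, 37.9 over all reads of a gene and 39.5 with 100 reads in each library. Counting reads only to the annotated end reversed the log2 ratios of SPCC1620.06c (-0.81), csn1 (-1.16), dus2 (-0.43), gdh1 (-0.25), mim1 (-0.38), pus2 (-0.15), rpl1102 (-0.34), tpp2 (-0.90), wos2 (-3.72), SPAC27E2.11c (1.84), cft2 (0.96), coa4 (0.38) and erh1 (2.55), and 200 nt past it that of tpp2 (-1.66). Site use of nta1 was -0.41 with sites ranked on both libraries, and that of zas1 was 1.12 with sites ranked on rich-medium wild type. The past-end share of snoRNA genes differed by 26.1 points, and by -4.17 without snoR61. The past-end share of tRNA genes differed by -47.2 points, and by -24.3 without SPATRNAILE.01. The settings relative to the median gene, ranked on rich-medium wild type, without pvg3, rng2, snoR61 or SPATRNAILE.01, and with 20 reads in each library for structured genes, were added after the data were seen.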
